A study of Homo sapiens with 9 samples.

Results

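The subject is the RNA symbols that begin with SNORA, given to H/ACA small nucleolar RNAs, or SCARNA, given to small RNAs of the Cajal body, in U-373MG cells exposed to either of 2 peptides. A symbol was taken as a member when the 9 deposited libraries together held at least 1 read of it. The count tables list 107 SNORA and 24 SCARNA symbols, and 76 SNORA and 23 SCARNA symbols had a read, which gave 99 members among 24462 symbols. The other 32 symbols had no read in any library. The members were thus chosen by their read total over the 9 libraries, which is a description and no finding.

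H/ACA RNAs fold into hairpins that guide the enzyme dyskerin (DKC1) to uridines of ribosomal RNA and small nuclear RNA, which it turns into pseudouridine. Small Cajal body RNAs guide changes in the RNAs of the spliceosome. Some are H/ACA RNAs, and others carry C/D boxes, alone or beside an H/ACA domain, and guide methylation of ribose instead. Those with an H/ACA domain carry a short CAB box that holds them in the Cajal body, a nuclear compartment for RNA maturation. Most human H/ACA RNAs are cut from introns of host genes after splicing, many of these hosts being genes of ribosomal proteins or translation factors, while a few small Cajal body RNAs have a promoter of their own. The mature RNAs end without a poly(A) tail, and the library kit primes at poly(A), so the counts need not follow the amount of mature RNA.

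U-373MG is an established human line of glioblastoma and astrocytoma origin. There were 3 libraries of cells given the peptide NnK-1, 3 of cells given the peptide CBRV1-10493 and 3 of untreated control cells. Each peptide was given at 200 nM for 48 h. Both are synthetic, modelled on jellyfish sequences and described as resembling ShK, a sea anemone toxin that blocks potassium channels. Both peptides are set against the same 3 untreated libraries, the time for which the controls were cultured is not recorded, and all groups come from 1 line. RNA was read from the 3′ ends of polyadenylated transcripts and counted per gene symbol by the authors.

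The sequences of 6 members that carry most of the results are printed first, from GENCODE release 29 on GRCh38, 5′ to 3′ with T for U. SCARNA22 is the most abundant member and SNORA12 the most abundant SNORA symbol, SNORA79 and SCARNA18 follow among the symbols with a GENCODE sequence, and SCARNA16 and SNORA4 had small p-values against control. Capitals mark ACA when it stands 3 bases from the 3′ end, the place of the ACA box, and TGAG, the letters most often found in a CAB box. SCARNA22 lies at chr4:1974636-1974760 on the plus strand, in an intron of NSD2 (WHSC1 in the count tables).
SCARNA22: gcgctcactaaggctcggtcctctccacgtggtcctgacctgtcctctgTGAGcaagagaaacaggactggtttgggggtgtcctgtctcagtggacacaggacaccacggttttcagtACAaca
SNORA12 lies at chr10:100237156-100237302 on the minus strand, in an intron of CWF19L1.
SNORA12: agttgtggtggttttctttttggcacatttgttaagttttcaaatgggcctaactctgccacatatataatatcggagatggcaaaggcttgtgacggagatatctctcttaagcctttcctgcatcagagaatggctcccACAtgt
SNORA79 lies at chr14:81202695-81202834 on the minus strand, in an intron of GTF2A1.
SNORA79: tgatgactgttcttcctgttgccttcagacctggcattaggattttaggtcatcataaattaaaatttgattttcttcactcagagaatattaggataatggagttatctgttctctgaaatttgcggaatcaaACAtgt
SCARNA18 lies at chr5:83064204-83064337 on the minus strand, in an intron of TMEM167A.
SCARNA18: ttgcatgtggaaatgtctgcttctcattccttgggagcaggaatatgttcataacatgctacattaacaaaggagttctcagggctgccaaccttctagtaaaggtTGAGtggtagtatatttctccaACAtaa
SCARNA16 lies at chr17:77089307-77089493 on the plus strand, within SEC14L1 and wholly inside an exon of SNHG20.
SCARNA16: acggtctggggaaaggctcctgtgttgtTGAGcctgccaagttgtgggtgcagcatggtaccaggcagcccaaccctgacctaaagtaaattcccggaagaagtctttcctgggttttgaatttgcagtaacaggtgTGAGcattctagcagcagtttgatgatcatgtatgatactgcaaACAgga
SNORA4 lies at chr3:186787612-186787749 on the plus strand, within EIF4A2 and wholly inside an exon of some of its annotated transcripts. Neither pattern is marked in SNORA4, whose last ACA stands closer to the annotated 3′ end than the marked place.
SNORA4: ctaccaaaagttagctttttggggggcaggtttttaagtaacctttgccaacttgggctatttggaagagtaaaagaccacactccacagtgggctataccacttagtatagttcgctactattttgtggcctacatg
The pattern ACA at that place was found in 54 of 70 SNORA members with a GENCODE sequence (77.1%), against 112 of 147 SNORA sequences in GENCODE (76.2%). Among SCARNA members it was in 11 of 20 (55%), against 14 of 24 in GENCODE (58.3%). C/D box RNAs, which are among the SCARNA symbols, have no ACA box. TGAG, searched on the RNA strand alone, was in 13 of 20 SCARNA members (65%) and in 31 of 70 SNORA members (44.3%), against 17 of 24 (70.8%) and 63 of 147 (42.9%) in GENCODE. The members with reads therefore held these letters about as often as the whole annotation does. The longest run of A within a member was 7 bases among SNORA and 6 among SCARNA sequences.

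The libraries held 11203094 to 13491075 reads each, and CPM values are counts scaled by these totals. NnK-1 replicate 2 and CBRV1-10493 replicate 1 lay farthest from the other libraries on the first and second principal components of log2 CPM, at 52.1 and -44.9, where the others ranged from -18.6 to 9.0 and from -9.8 to 14.0. Of 9 astrocyte or glioma markers, 8 had at least 19.7 CPM in every library, vimentin (VIM) having the highest level, while AQP4 had 4 reads in all. The defining markers of immune cells, PTPRC and AIF1, had 1 read each and the oligodendrocyte marker MOG had 2.

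The members took 24740 reads in all, 0.0224% of the reads counted, and a few symbols held most of them. SCARNA22 alone had 41.3% of the members' reads, and SCARNA22, SNORA12 and SCARNA9 together had 65.6%. Totals of 1 to 9 reads were found for 28 members, 10 to 99 for 42 and at least 100 for 29. In all 9 libraries 31 members were read, and 12 were read in a single library. At the edge of the rule, 4 members had 1 read in all, next to the 32 symbols with none. More members were read at least once in control libraries (90) than in CBRV1-10493 libraries (85) or NnK-1 libraries (75). The control libraries held 12306458 to 13491075 reads, against 12090415 to 12211389 with CBRV1-10493 and 11203094 to 12549625 with NnK-1. The part of depth in these counts was not tested, and the share of all symbols read in each group is not given here.

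The summed level of the members was lower with either peptide than in control cells. All 99 members together had 173, 181 and 205 CPM in the NnK-1 libraries, 201, 222 and 181 CPM in the CBRV1-10493 libraries, and 259, 319 and 262 CPM in the control libraries. Every library of either peptide lay below every control library, with a difference of the group means of log2 CPM of -0.58 for NnK-1 and -0.47 for CBRV1-10493. The SCARNA symbols had 92.6, 102 and 126 CPM with NnK-1 and 109.7, 131 and 106 CPM with CBRV1-10493, against 160.4, 195 and 163 CPM in control. Their differences from control were -0.70 and -0.58, and without SCARNA22 they were -0.69 and -0.58, so this symbol did not carry them alone. The SNORA symbols had 80.2, 78.5 and 78.8 CPM with NnK-1 and 91.1, 90.7 and 74.5 CPM with CBRV1-10493, against 98.5, 124 and 98.9 CPM in control, differences of -0.43 and -0.32. In bulk libraries such as these, fewer cells that hold an RNA and less of it per cell cannot be told apart. No p is given for these sums, because the members were chosen with results of these data known.

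The C/D box small nucleolar RNAs, the sister class of the H/ACA RNAs, were summed in the same way. The 107 SNORD symbols with a read, which name these RNAs, summed to 30.1 ± 4.12 CPM with NnK-1 and 27.9 ± 3.98 CPM with CBRV1-10493, against 34.2 ± 4.74 CPM in control (SD, n = 3 each). Their log2 differences from control were -0.18 and -0.30, their groups overlapped in both comparisons, and whether these differences depart from those of the members was not tested. The 5080 symbols that were too low to be tested, members included, summed to 731 ± 41.5 CPM with NnK-1 and 732 ± 16.9 CPM with CBRV1-10493, against 792 ± 33.9 CPM in control, log2 differences of -0.12 and -0.11. With CBRV1-10493 these sums too lay wholly below control (713.2, 739.1 and 745 against 800.5, 820.4 and 754.4 CPM), while those with NnK-1 overlapped it. The part of this shift of all low symbols in the members' sums was not tested.

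**Figure D1:**
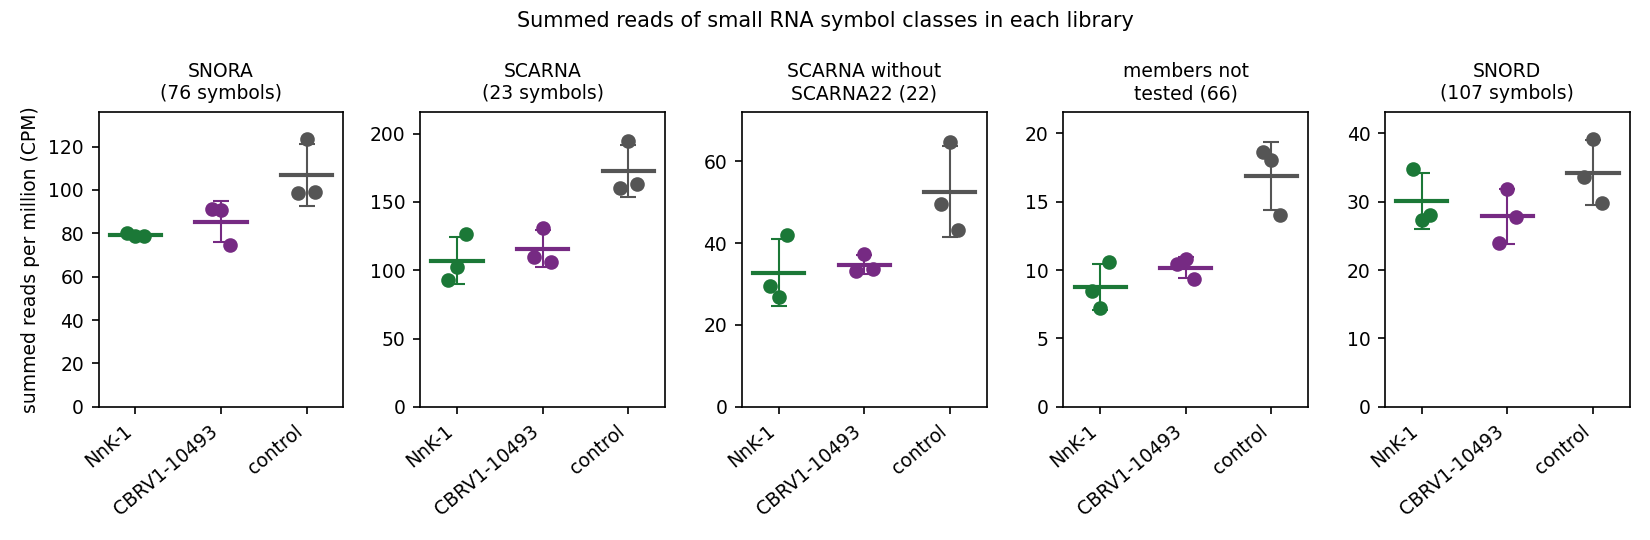
Summed counts scaled to library size (CPM, y axis from 0) of 5 symbol classes in each library; points are libraries, thick lines group means and error bars SDs (n = 3). The peptide libraries of the SNORA, SCARNA and untested member panels lie below all control libraries, and the SNORD groups overlap.

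Of the 99 members, 33 passed the filter on low counts and were tested, 22 SNORA and 11 SCARNA symbols, and 66 were not. A symbol passed with about 0.819 CPM in 3 libraries, which 12 members had in all 9 libraries, so the other tested members passed through their higher libraries. SNORA33, SNORA20, SCARNA17 and SCARNA5 reached it in no NnK-1 library and SCARNA12 in no CBRV1-10493 library, so the filter kept them through the other groups and a lower value in that group was favoured. No member passed an adjusted p of 0.05 in any comparison by edgeR's quasi-likelihood test with Benjamini-Hochberg adjustment over 13676 features, and neither did any other feature (0%). By DESeq2 with its own adjustment, 1 member, SCARNA22, passed for NnK-1 and 0 passed for CBRV1-10493 or between the peptides, and it called 2 of all features for NnK-1 and 0 in the other comparisons. At an unadjusted p under 0.05 by edgeR, 7 members were lower with NnK-1 than in control, where 3.56% of all features were, and 0 were higher, where 3.76% were. With CBRV1-10493, 5 were lower, where 1.55% of all features were, and 0 were higher, where 1.34% were. SNORA33 and SCARNA12 reached the cutoff in all 3 control libraries and in fewer than 3 of the 6 peptide libraries, and without them the counts of lower members were 6 and 5. The 6 still held SNORA20, which reached the cutoff in no NnK-1 library. Without control replicate 2 the counts over all tested members were 1 of 38 for NnK-1 and 2 of 38 for CBRV1-10493. Without NnK-1 replicate 1 the NnK-1 count was 3 of 41. Without CBRV1-10493 replicate 3 or replicate 2 the CBRV1-10493 count was 3 of 42 or 8 of 41. Leaving out NnK-1 replicate 2 and CBRV1-10493 replicate 1 together, chosen after seeing the data, gave 11 of 40 for NnK-1 and 5 of 40 for CBRV1-10493. The filter was run anew in each of these fits, and their shares over all features are not given here. The single library of control replicate 2 had the highest summed SNORA and SCARNA levels of all.

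Log2 fold changes against control were below 0 in 27 of the 33 tested members for NnK-1 and in 26 for CBRV1-10493, where 49.4% and 49.2% of all features were. Their medians were -0.50 and -0.56, beside 0.00 over all features in both comparisons. Members that the filter kept through other groups are part of these counts and medians. With SNORA33 and SCARNA12 left out, 25 and 24 of 31 members were below 0, SNORA20, SCARNA17 and SCARNA5 still included. The libraries of NnK-1 lay wholly below control for 7 tested members, where 7.92% of all features did, and wholly above it for 1, where 5.08% did. The libraries of CBRV1-10493 lay wholly below control for 4, where 4.96% did, and wholly above it for 0, where 3.91% did. Without SNORA33 and SCARNA12 the counts wholly below control were 6 and 3. The 6 still held SCARNA17, which reached the cutoff in no NnK-1 library. SCARNA22, SNORA4 and SNORA25 were among those wholly below control with both peptides, which were set against the same control libraries.

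**Figure D2:**
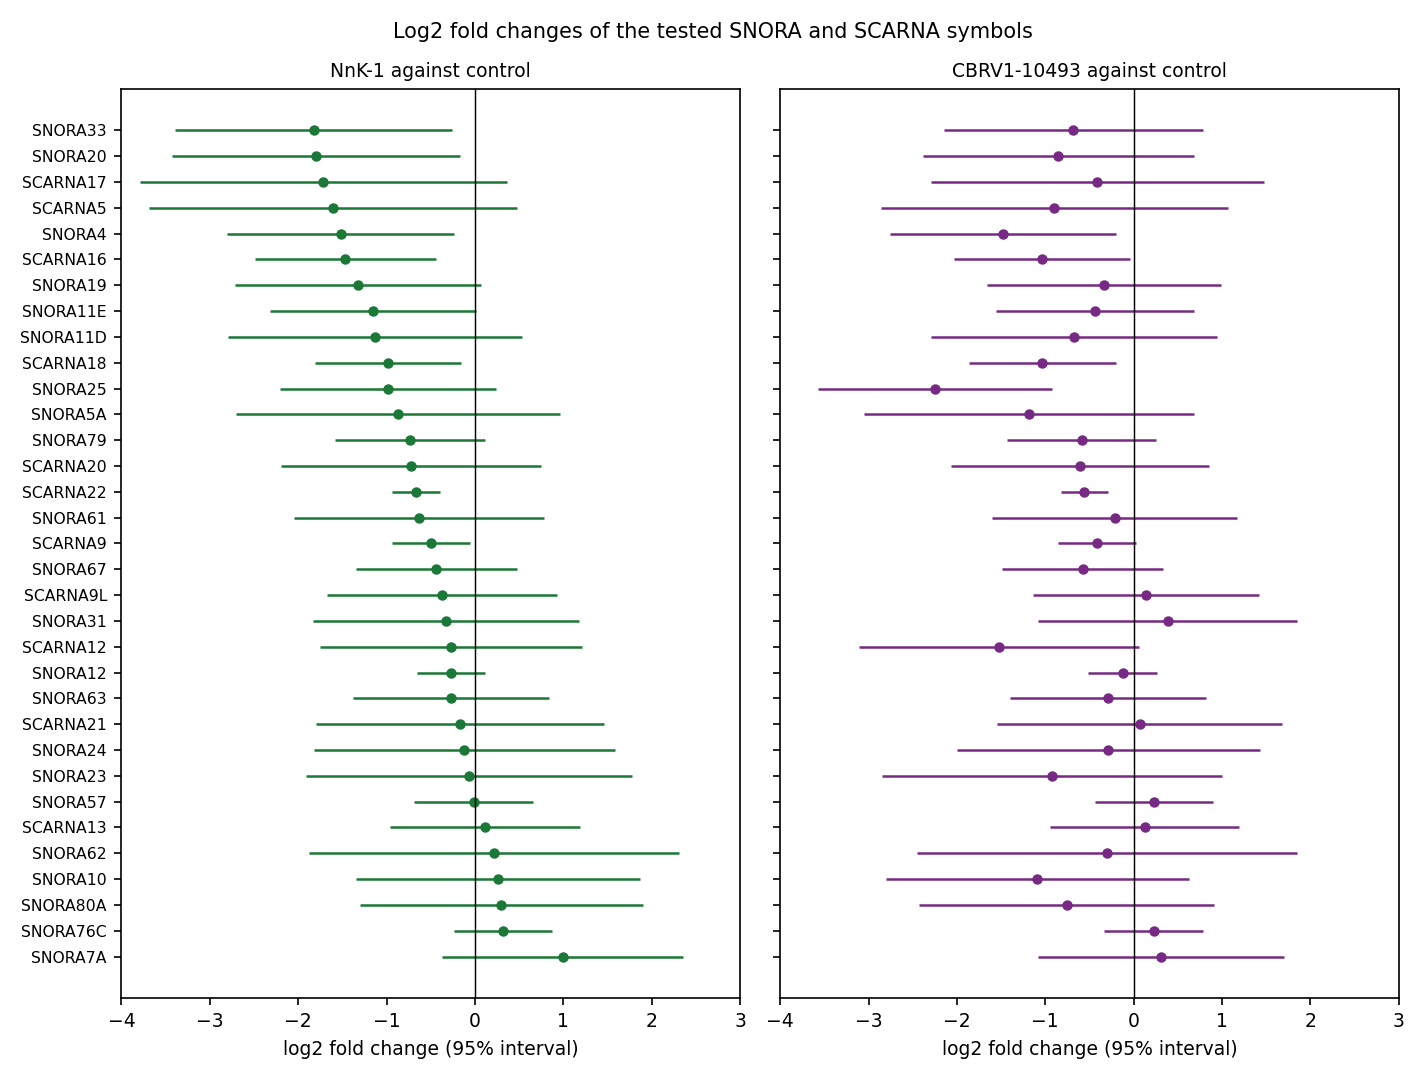
Log2 fold change against control (x axis, points) with its 95% interval (lines) for the 33 tested members, ordered by the NnK-1 value, for NnK-1 on the left and CBRV1-10493 on the right. Points lie left of 0 for 27 and 26 members, and SCARNA22 has the narrowest interval.

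SCARNA22, also known as ACA11, is encoded in the histone methyltransferase gene NSD2 and is known for its high level in myeloma with a translocation at that gene. It had 63.2, 75.4 and 84.2 CPM with NnK-1 and 76.5, 93.8 and 72.5 CPM with CBRV1-10493, against 111, 130.2 and 119.9 CPM in control. All peptide libraries were below all control libraries. With NnK-1 it averaged 74.3 ± 10.6 CPM against 120.3 ± 9.70 CPM in control (SD, n = 3 each), a log2 fold change of -0.67 (95% interval -0.94 to -0.40). By edgeR's quasi-likelihood test p was 4.7e-05, the smallest of the 13676 features, and the Benjamini-Hochberg adjusted p was 0.499. With CBRV1-10493 it averaged 80.9 ± 11.3 CPM, a log2 fold change of -0.56 (-0.82 to -0.29), with an edgeR p of 0.000325, the second smallest of all features, and an adjusted p of 1.00. DESeq2 gave an adjusted p of 0.0113 for NnK-1, and edgeR without the filter on low counts gave 8.77e-05 for NnK-1 and 0.0155 for CBRV1-10493. With any 1 library left out, the log2 fold change lay between -0.77 and -0.55 for NnK-1 and between -0.68 and -0.48 for CBRV1-10493.

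The mRNA of the gene that holds SCARNA22 stayed near its control level. WHSC1, the count tables' name for NSD2, had 177, 157 and 178 CPM with NnK-1 and 156, 165 and 146 CPM with CBRV1-10493, against 154, 187 and 156 CPM in control. The groups overlapped, with log2 fold changes of 0.07 and -0.08. The log2 ratio of SCARNA22 to WHSC1 reads was -1.21 ± 0.24 with NnK-1 and -0.95 ± 0.12 with CBRV1-10493, against -0.46 ± 0.07 in control (SD, n = 3 each). The ratio differed from control by -0.75 and -0.49 without overlap, and in each case the exact two-sided permutation test gave p = 0.1, the smallest that 3 libraries against 3 allow.

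**Figure D3:**
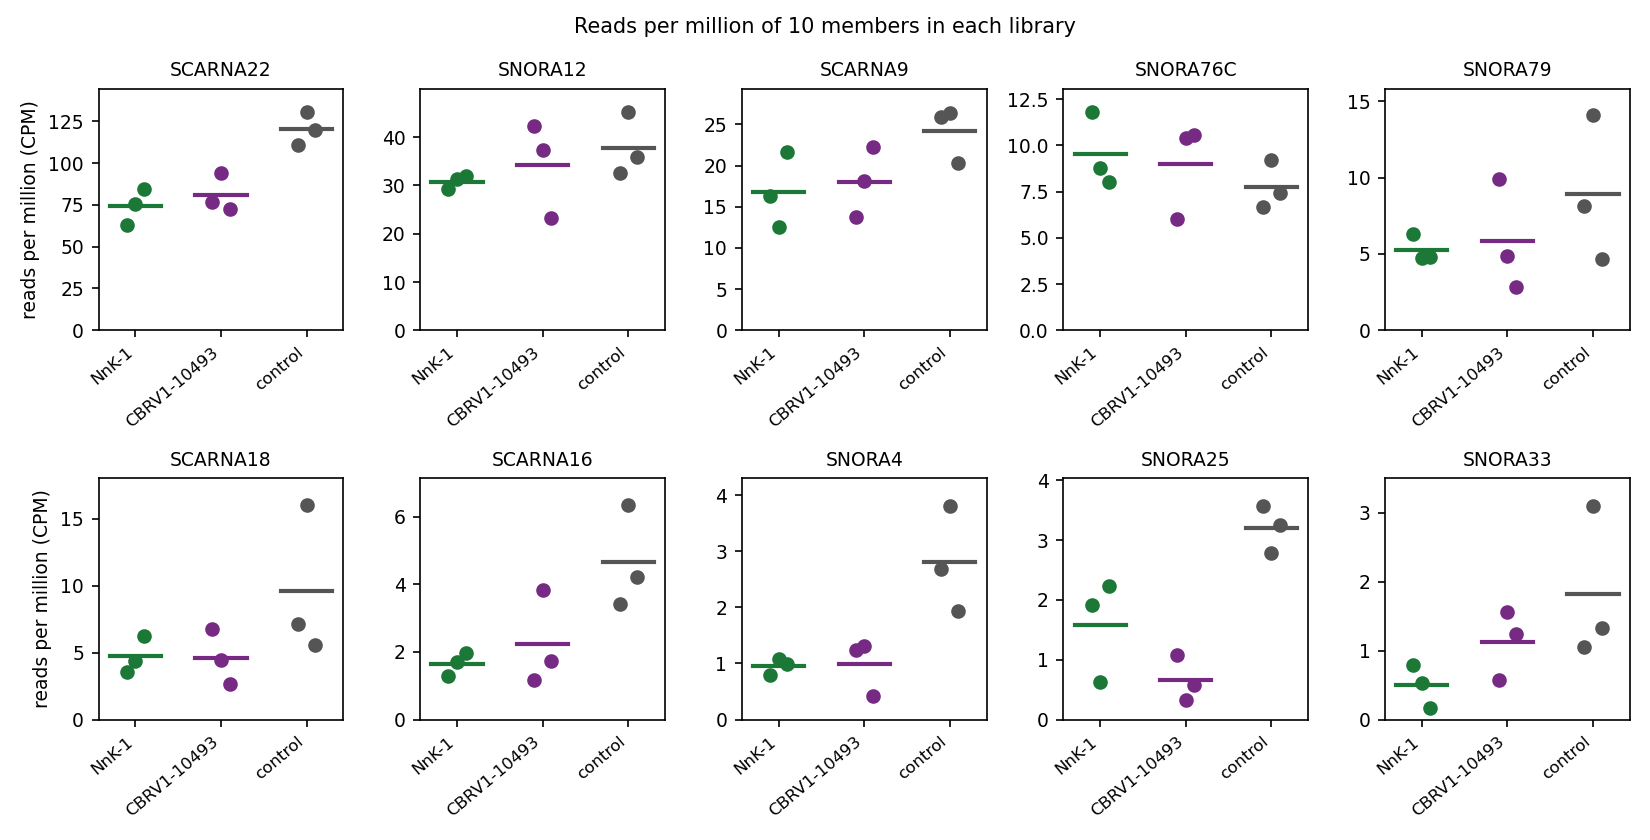
Counts scaled to library size (CPM, y axis from 0) of 10 members in each library; points are libraries and lines group means (n = 3). SCARNA22, SNORA4 and SNORA25 show no overlap between either peptide and control, and the control library with the highest SCARNA18, SNORA79 and SNORA33 levels is replicate 2.

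Among the other SCARNA symbols, SCARNA9, a C/D box guide for the U2 small nuclear RNA, was the most abundant. It had 16.3, 12.5 and 21.7 CPM with NnK-1 and 13.7, 18.1 and 22.3 CPM with CBRV1-10493, against 25.9, 26.4 and 20.4 CPM in control, so that 1 library of each peptide lay within the control range. The log2 fold changes were -0.50 (95% interval -0.94 to -0.06, edgeR adjusted p = 0.637) and -0.41 (-0.85 to 0.03, adjusted p = 1.00). SCARNA9L, listed near EIF1AX, is a near copy of SCARNA9, and reads could be shared between the 2 symbols in a way the counts do not show. It had log2 fold changes of -0.37 with NnK-1 and 0.14 with CBRV1-10493.

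SCARNA18 had 3.59, 4.37 and 6.27 CPM with NnK-1 and 6.78, 4.42 and 2.64 CPM with CBRV1-10493, against 7.15, 16.0 and 5.56 CPM in control. Control replicate 2 stood above all other libraries, and the other controls overlapped the libraries of both peptides. Its log2 fold changes were -0.98 and -1.03 (edgeR adjusted p = 0.620 and 1.00), and without control replicate 2 they were -0.40 and -0.45. SCARNA16 had 1.27, 1.70 and 1.98 CPM with NnK-1 and 1.16, 3.85 and 1.73 CPM with CBRV1-10493, against 3.41, 6.35 and 4.23 CPM in control. It was lower without overlap for NnK-1, with a log2 fold change of -1.47 (95% interval -2.49 to -0.44, edgeR adjusted p = 0.578), and overlapped control for CBRV1-10493, at -1.04 (-2.03 to -0.04, adjusted p = 1.00). Since SCARNA16 lies inside an SNHG20 exon on the same strand, reads of the 2 RNAs cannot be told apart in these counts.

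The remaining named SCARNA symbols were low. SCARNA12, in the prohibitin gene PHB2, had 14, 19 and 9 reads with NnK-1 and 8, 9 and 1 reads with CBRV1-10493, against 21, 14 and 21 reads in control. Its CBRV1-10493 libraries lay below all control and all NnK-1 libraries, with a log2 fold change of -1.53 against control and of -1.25 against NnK-1 (edgeR adjusted p = 1.00 and 0.994), which is a description only because it passed the filter through the other groups. SCARNA17, which is thought to be transcribed from its own promoter, had 4, 2 and 3 reads with NnK-1 and 19, 2 and 2 reads with CBRV1-10493, against 13, 5 and 15 reads in control. Its NnK-1 libraries lay below control, with a log2 fold change of -1.72 (95% interval -3.79 to 0.36, edgeR adjusted p = 0.726), also a description only, while 1 CBRV1-10493 library was above all control libraries.

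The 3 most abundant SNORA symbols gave log2 fold changes against control between -0.73 and 0.32. SNORA12 had 29.2, 31.2 and 31.9 CPM with NnK-1 and 42.4, 37.3 and 23.3 CPM with CBRV1-10493, against 32.5, 45.2 and 35.9 CPM in control. The NnK-1 libraries lay just under control and the CBRV1-10493 libraries spanned it, with log2 fold changes of -0.27 (95% interval -0.66 to 0.12) and -0.13 (-0.51 to 0.26). SNORA76C, listed as SNORA50C in RefSeq, had 148, 98 and 97 reads with NnK-1 and 73, 127 and 128 reads with CBRV1-10493, against 82, 116 and 100 reads in control. It was the only member with a mean of at least 5 CPM whose log2 fold changes against control were above 0, at 0.32 (-0.24 to 0.88) and 0.23 (-0.33 to 0.78), and its groups overlapped. SNORA79, in the gene of the general transcription factor subunit GTF2A1, had 6.29, 4.73 and 4.78 CPM with NnK-1 and 9.93, 4.83 and 2.81 CPM with CBRV1-10493, against 8.13, 14.1 and 4.67 CPM in control. Its log2 fold changes were -0.73 and -0.59, with groups that overlapped and edgeR adjusted p of 0.717 and 1.00. Without control replicate 2 they were -0.25 and -0.11, and without CBRV1-10493 replicate 1 or replicate 3 the CBRV1-10493 value was -1.21 or -0.26.

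SNORA4 and SNORA25 were lower than control with both peptides without overlap. SNORA4 comes from EIF4A2, the gene of an RNA helicase of the translation initiation factor 4A family. It had 0.797, 1.07 and 0.990 CPM with NnK-1 and 1.24, 1.31 and 0.413 CPM with CBRV1-10493, against 2.68, 3.81 and 1.93 CPM in control. The log2 fold changes were -1.52 (95% interval -2.81 to -0.23, edgeR adjusted p = 0.628) and -1.48 (-2.76 to -0.20, adjusted p = 1.00). SNORA25 comes from TAF1D, the gene of a subunit of the selectivity factor of RNA polymerase I. It had 24, 7 and 27 reads with NnK-1 and 13, 4 and 7 reads with CBRV1-10493, against 44, 35 and 44 reads in control. The log2 fold change was -0.98 (-2.21 to 0.24, edgeR adjusted p = 0.731) with NnK-1 and -2.25 (-3.57 to -0.92, adjusted p = 1.00) with CBRV1-10493.

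Of the other SNORA symbols named here, SNORA33 lay below control with NnK-1 and SNORA7A above it, and the rest overlapped it. SNORA33, in the ribosomal protein gene RPS12, had 10, 6 and 2 reads with NnK-1 and 7, 19 and 15 reads with CBRV1-10493, against 13, 39 and 18 reads in control. Its NnK-1 log2 fold change was -1.83 (95% interval -3.40 to -0.25, edgeR adjusted p = 0.634), a description only, since it passed the filter through the other groups. SNORA20, in the chaperonin gene TCP1, had 7, 9 and 5 reads with NnK-1 and 22, 8 and 12 reads with CBRV1-10493, against 4, 42 and 36 reads in control, and the lowest library of all was a control library. Its NnK-1 log2 fold change was -1.80 (edgeR adjusted p = 0.649), again a description only. SNORA7A, in the ribosomal protein gene RPL32, was the single tested member that was higher without overlap, with 18, 13 and 32 reads with NnK-1 and 8, 21 and 11 with CBRV1-10493, against 12, 13 and 9 reads in control. In CPM its lowest NnK-1 library, at 1.16, was above the highest control library, at 1.03, and the log2 fold change of 0.99 had a 95% interval of -0.38 to 2.36 (edgeR adjusted p = 0.773). SNORA57, in METTL12, SNORA31, in TPT1, and SNORA80A, in URB1, overlapped control with both peptides. Their log2 fold changes were -0.015 with NnK-1 and 0.23 with CBRV1-10493 for SNORA57, -0.33 and 0.38 for SNORA31, and 0.30 and -0.76 for SNORA80A. SNORA19, in the initiation factor gene EIF3A, was at -1.32 with NnK-1 and -0.34 with CBRV1-10493, also with overlap.

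Each member was then set against the gene that holds it. GENCODE 29 places 88 members at 1 locus with a gene around it on the same strand, and for 74 of them this gene codes for protein (62 distinct genes). Of the 88, 50 lay in introns of all annotated transcripts, 33 wholly and 5 partly in an annotated exon. For the members that overlap an exon, reads of the host transcript and of the member cannot be told apart in the counts. The 50 intronic members summed to 116, 128 and 143 CPM with NnK-1 and 150.2, 159 and 114 CPM with CBRV1-10493, against 179, 232 and 183 CPM in control. Without SCARNA22 the CBRV1-10493 libraries of the intronic members (73.7, 64.9 and 41.0 CPM) overlapped control (68.7, 102 and 63.2 CPM), while NnK-1 (52.9, 52.8 and 59.1 CPM) stayed below it. The 38 members that overlap an exon summed to 25.5, 28.8 and 29.6 CPM with NnK-1 and 27.3, 33.2 and 32.1 CPM with CBRV1-10493, against 44.5, 47.2 and 47.8 CPM in control, log2 differences of -0.73 and -0.60 without overlap. Lower sums without overlap were thus seen with both peptides for the exonic members and for the intronic members. Once SCARNA22 was left out, the intronic sum was lower without overlap with NnK-1 but not with CBRV1-10493.

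For 32 tested members a host gene was counted, 31 genes in all, 30 of which passed the filter. Host log2 fold changes against control were small, from -0.37 to 0.49 with a median of 0.01 for NnK-1 and from -0.16 to 0.48 with a median of 0.00 for CBRV1-10493. They were below 0 in 15 and 14 of the 30 hosts. The log2 ratio of member to host reads was lower than in control in 25 of 32 pairs with either peptide, with median differences of -0.59 and -0.63. It was lower without overlap in 6 pairs and higher in 1 with NnK-1, and lower in 4 and higher in 0 with CBRV1-10493. Shares over all features were not computed for such ratios. The 6 included SNORA33, and the 4 SCARNA12, which passed the filter through other groups. Also among the 6 was SCARNA16 to SEC14L1, although SCARNA16 lies inside an SNHG20 exon. The higher pair was SNORA7A to RPL32, with a difference of 1.00 (exact permutation p = 0.1). SCARNA22, SNORA4 and SNORA25 had ratios below all control libraries with both peptides, and for SNORA4 the differences were -1.44 and -1.50 and for SNORA25 -1.13 and -2.18, each with p = 0.1 by the exact permutation test. Among the most abundant members the ratio of SNORA12 to CWF19L1 differed by 0.08 and -0.17 and that of SCARNA9 to CEP295 by -0.35 and -0.37, with groups that overlapped. SNORA12 had 372% of the reads of its host and SCARNA22 56.3%, while SNORA4 had 0.744% of the reads of EIF4A2. The files hold 63384 reads under the read-through symbol SENP3-EIF4A1 and 16 under EIF4A1, so the read-through symbol served as host of SNORA67. The host of SCARNA17, SNHG22, had 8 reads, too few for its ratio to be read, although this pair is among the 25 with either peptide.

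**Figure D4:**
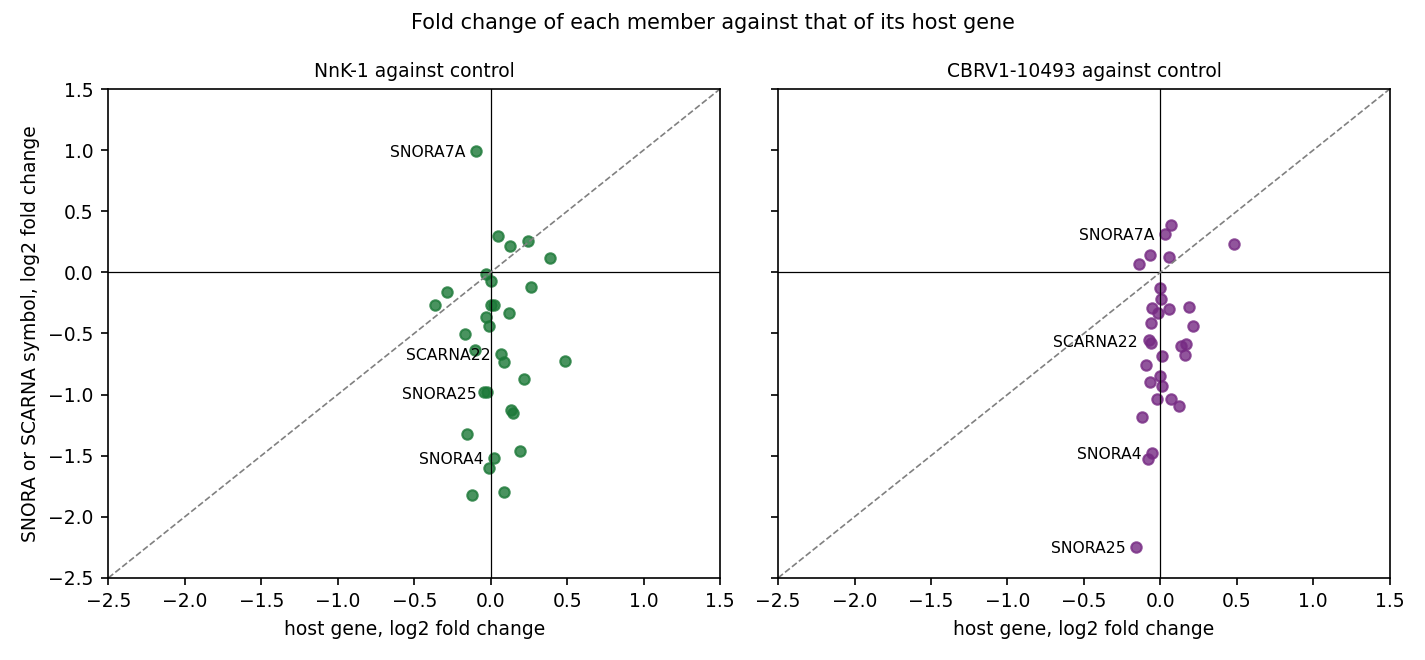
Log2 fold change against control of each tested member (y axis) and of its host gene (x axis), 1 point per pair with a tested host, for NnK-1 on the left and CBRV1-10493 on the right; the dashed line marks equal values. Host values stay between -0.37 and 0.49 while member values reach -1.83 and -2.25.

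The members within each of 2 host genes lay below control when summed, although most are low alone. The 6 members within TAF1D (SNORA25, SNORA1, SNORA40, SNORA32, SNORA18 and SNORA8) summed to 1.91, 1.87 and 2.47 CPM with NnK-1 and 2.89, 1.47 and 1.40 CPM with CBRV1-10493, against 4.63, 5.08 and 3.85 CPM in control. TAF1D itself had 56.6 ± 2.02 CPM with NnK-1 and 51.9 ± 5.67 CPM with CBRV1-10493, against 58.6 ± 7.93 CPM in control (SD, n = 3 each), and its groups overlapped. The 3 members within EIF4A2 (SNORA63, SNORA4 and SNORA81) summed to 1.99, 2.95 and 3.71 CPM with NnK-1 and 2.89, 3.11 and 2.72 CPM with CBRV1-10493, against 5.69, 5.40 and 4.82 CPM in control. EIF4A2 had 218 ± 60.1 CPM with NnK-1 and 207 ± 15.7 CPM with CBRV1-10493, against 217 ± 17.6 CPM in control. Both member sums lay below control without overlap with either peptide, and both host genes overlapped control. Within TAF1D, SNORA25 had 58 of the 75 reads with NnK-1, 24 of the 70 with CBRV1-10493 and 123 of the 173 in control. Each of the other members within TAF1D overlapped control with both peptides, so the lower sum rested mostly on SNORA25. Within EIF4A2, SNORA63 had log2 fold changes of -0.27 and -0.29 with wide intervals (-1.38 to 0.84 and -1.40 to 0.82), so the sum rested mostly on SNORA4. These sets were summed after their values had been seen.

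Members of other host families did not separate. The 14 members in ribosomal protein genes summed to 6.27 ± 0.917 CPM with NnK-1 and 5.24 ± 1.82 CPM with CBRV1-10493, against 7.45 ± 2.45 CPM in control. The 13 members in small nucleolar RNA host genes (SNHG symbols) summed to 5.58 ± 1.61 CPM with NnK-1 and 6.76 ± 2.10 CPM with CBRV1-10493, against 8.16 ± 3.72 CPM in control (SD, n = 3 each). Both sets overlapped control with either peptide. SNORA11D and SNORA11E, in the near-identical genes MAGED4 and MAGED4B, may share reads and had log2 fold changes of -1.13 and -1.15 with NnK-1 and of -0.68 and -0.44 with CBRV1-10493.

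No member passed the adjusted p between the peptides. At an unadjusted p under 0.05 by edgeR, 0 of 33 tested members were lower in the CBRV1-10493 group than in the NnK-1 group and 0 higher, where 2.35% and 1.96% of all features were. By DESeq2, which took all 99 members, 1 member was lower at that level, and the share over all features in that fit is not given here. SCARNA12 alone was lower without overlap, where 4.17% of all features were, and 0 members were higher without overlap, where 4.71% were. Log2 fold changes were below 0 in 13 of the 33, where 49.7% of all features were. The median log2 fold change was 0.11, beside 0.00 over all features. For SCARNA22 the difference was 0.11 with a 95% interval of -0.16 to 0.38 (edgeR adjusted p = 0.994), for SNORA12 0.14 (-0.25 to 0.53) and for SCARNA9 0.09 (-0.36 to 0.53). Among the wider differences were -1.35 for SNORA10 (-3.06 to 0.36), -1.26 for SNORA25 (-2.60 to 0.08), 1.14 for SNORA33 (-0.46 to 2.74) and 1.30 for SCARNA17 (-0.81 to 3.42). The SCARNA17 value rested on 1 library, being -0.59 without CBRV1-10493 replicate 1. Their intervals leave room for differences of more than 1 on the log2 scale in low members. The ratio of SCARNA22 to its host was higher with CBRV1-10493 than with NnK-1 by 0.26 without overlap (exact permutation p = 0.1).

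The 66 members that were not tested were also lower as a sum. They gave 8.45, 7.23 and 10.6 CPM with NnK-1 and 10.4, 10.8 and 9.33 CPM with CBRV1-10493, against 18.6, 18.0 and 14.0 CPM in control, log2 differences of -0.95 and -0.72 without overlap. Their most frequent symbols were SNORA21, with 81 reads, SCARNA11, with 63, and SNORA56, with 61. SNORA21, in the ribosomal protein gene RPL23, had 10, 5 and 2 reads with NnK-1 and 2, 19 and 7 with CBRV1-10493, against 30, 4 and 2 in control, so 1 control library held most of the control reads. SCARNA11 had 5, 0 and 9 reads with NnK-1 and 0, 4 and 3 with CBRV1-10493, against 7, 20 and 15 in control. SNORA48, named after its values were seen, had 1 read in each NnK-1 library and 5, 2 and 7 with CBRV1-10493, against 14, 7 and 10 in control.

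The proteins of the H/ACA particle and of the Cajal body were counted at the level of mRNA. The 4 core proteins of the H/ACA particle, DKC1, NHP2, NOP10 and GAR1, had log2 fold changes against control from -0.28 to 0.25 for NnK-1 and from -0.06 to -0.01 for CBRV1-10493. DKC1, the pseudouridine synthase, had 273 ± 14.3 CPM with NnK-1 and 257 ± 9.75 CPM with CBRV1-10493, against 271 ± 6.75 CPM in control (SD, n = 3 each). Of 6 assembly factors none passed the adjusted p of 0.05 by edgeR. At an unadjusted p under 0.05, 2 for NnK-1 and 1 for CBRV1-10493 were higher, where 3.76% and 1.34% of all features were. RUVBL2, an ATPase that helps to assemble the particle, had 49.3, 55.3 and 48.9 CPM with NnK-1 and 49.5, 46.1 and 43.6 CPM with CBRV1-10493, against 40.1, 38.5 and 33.2 CPM in control. Both peptide groups of RUVBL2 lay wholly above control, where 5.08% and 3.91% of all features did. The log2 fold changes were 0.49 and 0.33 (edgeR adjusted p = 0.499 and 1.00). Of 17 Cajal body genes and 14 genes of 3′ trimming, adenylation and decay, 0 passed the adjusted p in any comparison, where 0% of all features did. At an unadjusted p under 0.05, 1 of each list was higher and 0 lower with NnK-1 than in control, where 3.76% and 3.56% of all features were, and 0 of either list with CBRV1-10493. Between the peptides 1 Cajal body gene was higher with CBRV1-10493 than with NnK-1, and in the other list 1 was lower and 1 higher, where 2.35% of all features were lower and 1.96% higher. USPL1, a Cajal body gene, and ZCCHC8, of the nuclear exosome targeting complex, were lower than control without overlap with NnK-1, at -0.92 and -0.44 (edgeR adjusted p = 0.699 and 0.678). Other genes of these lists also lower without overlap included ICE1, SKIV2L2 and C1D, at -0.18, -0.13 and -0.23. ELL and PAPD7 were higher without overlap, at 0.48 and 0.22. Of all features, 7.92% lay wholly below control with NnK-1 and 5.08% wholly above it.

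Other noncoding RNAs outside the rule were set beside the members. TERC, the telomerase RNA, which carries an H/ACA domain and a CAB box, had 14.8, 12.2 and 18.2 CPM with NnK-1 and 14.1, 24.8 and 21.3 CPM with CBRV1-10493, against 17.6, 24.9 and 26.2 CPM in control. Its log2 fold changes were -0.58 (95% interval -1.03 to -0.12, edgeR adjusted p = 0.620) and -0.18 (-0.63 to 0.27), and its groups overlapped. RNU4ATAC, an RNA of the minor spliceosome, had 91.8, 77.8 and 84.5 CPM with NnK-1 and 96.4, 168 and 114 CPM with CBRV1-10493, against 219, 157 and 115 CPM in control. Its NnK-1 log2 fold change of -0.92 (-1.31 to -0.53) had the second smallest edgeR p of all features, 9.02e-05, with an adjusted p of 0.499. RPPH1, the RNA of ribonuclease P, had log2 fold changes of 0.09 with both peptides, and RMRP, its relative in ribosomal RNA processing, had -0.32 and -0.34 with intervals that span more than 1 on either side of 0.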

How the data were processed

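Total RNA of 9 U-373MG libraries was read with Lexogen's QuantSeq kit, per the labels. What the authors deposited is a table of unnormalized counts for each library, with 1 line or more for a gene symbol. Bowtie2, bedtools and the build hg19 are named in the submitters' processing notes; the versions, the annotation, strand setting and handling of reads with several matches are not given in the sources used here. Counts of a symbol on several lines were summed (SNORA38 stood on 7 lines, SNORA59A on 2, of which 1 equalled SNORA59B in every library), which left 24462 symbols, and CPM is the count scaled by the library total.

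Symbols were kept by filterByExpr (minimum count 10, minimum total 15), scaled by TMM and tested with edgeR 4.0.16 in R 4.3.3 by the two-sided quasi-likelihood test, 9 libraries in 1 fit, with Benjamini-Hochberg adjustment over 13676 features and a threshold of 0.05. Intervals are 95% intervals of that fit, and errors are SDs over libraries. Library totals of 11203094 to 13491075 leave members under 100 reads with wide intervals. Member to host ratios used log2 of counts plus 0.5 and an exact permutation test. Replicates are called biological for the peptides, with no separate cultures named, so the spread behind each p-value is that of the libraries at hand and may be technical; all replicate pairs differed by more than sampling noise. Same-numbered libraries were not treated as paired.

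Loci, hosts and sequences came by name from GENCODE 29 on GRCh38, and 10 hosts from RefSeq without comparing strands; no coordinates of the hg19 files were converted. Members named are those with a mean of at least 5 CPM, the 4 with the smallest p on each side of each comparison and the 3 untested ones with the most reads; SNORA48, SNORA63, SNORA67, SNORA20, SNORA11D, SCARNA9L and the other members of TAF1D and EIF4A2 were named after their values were seen. Members, gene lists and tests were chosen with earlier results of these data known. The alternatives were DESeq2 1.42.0, its size factors, library totals alone, no filter, only the 6 libraries compared, separate lines per symbol, a replicate block, a ratio pseudocount of 5, and each library left out; leaving out NnK-1 replicate 2 and CBRV1-10493 replicate 1 together was chosen after seeing the data.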

Additional observations from a re-analysis of the deposited data

How the results depend on the processing

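The count of members past an adjusted p of 0.05 was 0 in each comparison. It was 1, SCARNA22, without the filter on low counts for NnK-1 and for CBRV1-10493, and 1 by DESeq2 for NnK-1, where all features called numbered 74 and 6 without the filter and 2 by DESeq2, against 0. It stayed 0 with other scalings, with single libraries left out and with the replicate block; same-numbered libraries did not deviate together (correlations of -0.06 to 0.13), so the numbers are not taken as pairs. Members lower than control at an unadjusted p under 0.05 by edgeR numbered 12 for NnK-1 and 8 for CBRV1-10493 without the filter, where 99 were tested, against 7 and 5 of 33. The shares over all 18756 features of the fit without the filter are not given here, so its counts cannot be set against a general rate. Under the block the SNORA4 difference between the peptides was -0.056 instead of 0.043. The differences of summed SNORA and SCARNA levels from control kept their sign under every alternative run, from -0.48 to -0.32 and from -0.82 to -0.60 for NnK-1 and from -0.38 to -0.21 and from -0.67 to -0.49 for CBRV1-10493 with 1 library left out. Some differences crossed 0 when 1 library, or the 2 that lay apart, were left out; all but that of SCARNA17 between the peptides, 1.30, were within 0.5 of 0 with all libraries. For the ratio of SNORA12 to CWF19L1 the range was -0.215 to 0.241 for NnK-1, -0.497 to 0.171 for CBRV1-10493 and -0.578 to 0.089 between the peptides. Between the peptides the ratio ranged from -0.17 to 0.126 for SCARNA9, from -0.465 to 0.382 for SNORA79 and from -0.471 to 0.273 for SCARNA18. The log2 fold changes for NnK-1 ranged from -0.049 to 0.579 for SNORA80A, from -0.135 to 0.818 for SNORA10, from -0.169 to 0.077 for SNORA57 and from -0.773 to 0.435 for SNORA31. Those for CBRV1-10493 ranged from -0.313 to 0.09 for SNORA12, from -0.164 to 0.568 for SNORA7A and from -2.304 to 0.041 for SCARNA17. Those between the peptides ranged from -0.007 to 0.208 for SCARNA22, from -0.043 to 0.361 for SNORA12, from -0.088 to 0.314 for SCARNA9, from -0.22 to 0.123 for SNORA76C and from -0.537 to 0.477 for SNORA79. They ranged from -0.482 to 0.231 for SCARNA18, from -0.202 to 0.774 for SCARNA16, from -0.209 to 0.409 for SNORA4 and from -0.752 to 1.757 for SCARNA17. The cause was not tested. Most members hold fewer than 100 reads over 9 libraries, which limits what can be told apart.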
